A study of Mus musculus with 194 samples.

Results

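Kcnj10, Kcnj16, Aqp4 and Atp1b2 are genes by which astrocytes, the star-shaped support cells of the brain, keep the potassium, sodium and water of brain tissue in balance. Transposon insertions were counted at these 4 loci, out of 21631 protein-coding loci, in 46 replicates of mouse brain in 11 groups and in 1 pooled table of a cell line. A locus was the gene body in the mouse genome build GRCm38 with 10 kb on each side. The level of a locus is its number of insertions for every 1000000 insertions in the same table, written IPM below.

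The 4 genes form a working set in astrocytes. Kcnj10 encodes an inwardly rectifying potassium channel that takes up potassium released by active neurons, and Kcnj16 encodes a channel subunit that joins the Kcnj10 product in mixed channels and conducts little alone. Aqp4 encodes the main water channel of the brain, held in the astrocyte endfeet that wrap blood vessels. Atp1b2 encodes a glial beta subunit of the sodium pump, which moves potassium into the cell and sodium out of it. In calling cards a transposase places a marked transposon at TTAA sequences, and a transcription factor joined to the transposase can draw it to that factor's sites. An insertion therefore records where the transposase reached the DNA in the cells that carried it, and is not a measure of RNA.

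Mice received calling card virus (AAV) at postnatal day 0 to 1. The C57bl6J group (2 replicates) received viruses that need no Cre. Syn1Cre (6) and GFAPCre (6) are named by Cre lines, the first in wide use for neurons and the second for astrocytes, and Syn1CreNeg (6) and GFAPCreNeg (6) are their Cre-negative counterparts. Frontflip_GFAPCre (3) and Frontflip_GFAPCreNeg (3) carry a further construct that the labels call Frontflip. Syn1Cre_SP1_P28 (4) and Syn1Cre_SP1_P10 (3) are Syn1Cre groups labelled with the transcription factor SP1, read here as a transposase fused to SP1 and collection at postnatal day 28 or 10; the age at collection of the other groups is not given in the sources used here. BrokenHeart (3) was read from cortical DNA with 20 transposon barcodes, whereas the other groups are self-reporting transposon (SRT) libraries read from RNA. Rbp4Cre_TRAP (4) came from whole forebrain, from RNA of cells named by the Rbp4 Cre line, and all other mouse groups from cortex. N2a, a mouse neuroblastoma cell line, has 1 pooled table. The labels do not name the promoter of the virus or check which cells a line marks. The labels call the tables replicates and do not say that each is a separate animal, so p-values measure the spread between these tables. They are called animals below.

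Depth differed between groups. The tables of Syn1Cre held 443158 to 1364948 insertions, those of GFAPCre 600443 to 1505413, Syn1CreNeg 97519 to 556145 and GFAPCreNeg 208057 to 597230. The C57bl6J tables held 1545951 and 2186743, SP1 at P28 108965 to 577609 and at P10 86842 to 95331. The other mouse groups held 2341 to 205559 insertions a table. As a check of the labelled cells, the summed level of 13 astrocyte marker loci was 732 to 2331 IPM in Syn1Cre and 902 to 1875 in GFAPCre, against 2391 to 2987 in Syn1CreNeg and 1638 to 3480 in GFAPCreNeg. The 15 neuron marker loci summed to 4670 to 5277 IPM in Syn1Cre, 4289 to 5095 in GFAPCre, 3741 to 4738 in Syn1CreNeg and 3489 to 4641 in GFAPCreNeg. No astrocyte or neuron marker locus was at 0 in all animals of these 4 groups. In bulk tissue, fewer cells of a type and fewer insertions per cell cannot be told apart.

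The Kcnj10 gene (gene ID 16513) spans chr1:172341210-172374085 on the plus strand. Kcnj16 (16517) spans chr11:110968033-111027968, also on the plus strand, and RefSeq lists 4 starts for it. With 10 kb flanks these loci measured 52.9 and 79.9 kb. The Kcnj10 locus takes in part of the body of Pigm, and no other protein-coding gene body lies in the Kcnj16 locus.

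The stretches of 250 bases before the starts of both channel genes are shown because the insertions lie differently around them. They are RefSeq sequences of GRCm38.p6, plus strand, from chr1:172340960-172341209 for Kcnj10 and chr11:110997237-110997486 for the second of the 4 Kcnj16 starts. Capitals mark GGGCGG or CCGCCC, a short form of the GC box that SP1 binds, searched on both strands, and TTAA, the sequence at which insertions are placed.
Kcnj10: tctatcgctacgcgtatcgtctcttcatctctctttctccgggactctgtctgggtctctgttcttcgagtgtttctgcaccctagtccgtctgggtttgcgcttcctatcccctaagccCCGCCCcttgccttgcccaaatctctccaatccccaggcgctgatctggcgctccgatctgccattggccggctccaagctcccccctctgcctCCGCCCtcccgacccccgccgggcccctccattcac
Kcnj16, second start: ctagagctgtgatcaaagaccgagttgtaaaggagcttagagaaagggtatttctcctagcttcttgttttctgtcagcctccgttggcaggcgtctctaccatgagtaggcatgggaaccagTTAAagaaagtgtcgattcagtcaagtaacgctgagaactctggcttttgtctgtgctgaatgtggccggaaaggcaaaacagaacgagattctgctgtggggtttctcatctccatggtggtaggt
The Kcnj10 stretch holds 2 GC boxes, beginning 130 and 36 bases before the start, and no TTAA. The Kcnj16 stretch holds no GC box and 1 TTAA, at position 110997360, which lies 127 bases before the start. Of 32851 RefSeq stretches of the same length, 32.7% hold the GC box and 49.0% hold TTAA. The single TTAA before the second Kcnj16 start took 150 insertions in 33 tables. It was the third most used position of the whole Kcnj16 locus. The other Kcnj16 starts, not printed, differed. Before the outermost start lie 2 TTAA without insertions and no GC box. Before the fourth lie 1 GC box and 3 TTAA, with 0, 0 and 1 insertions, and before the third neither.

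Within the Kcnj16 locus, insertions gathered at that second start, 29.5 kb inside the gene. In Syn1Cre 67.8% of the 438 insertions lay within 2 kb of it, in GFAPCre 68.8% of 522, in Syn1CreNeg 74.8% of 424 and in GFAPCreNeg 75.9% of 532. The share was 79.6% of 137 in SP1 at P28 and 45.8% of 201 in C57bl6J. Such a span makes up 5.01% of the locus length. The outermost start, by contrast, had 0 to 1.49% of the insertions within 2 kb in the same 6 groups. The 5 most used positions of Kcnj16 lay within 1720 bases of each other and held 38.6% of its 2356 insertions in mice. The most used, at position 110997663, took 286 insertions in 37 animals and was hit in all 6 animals of each of the Syn1Cre, Syn1CreNeg, GFAPCre and GFAPCreNeg groups.

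At Kcnj10 the densest 2 kb in each of the Syn1Cre, Syn1CreNeg, GFAPCre, GFAPCreNeg and SP1 P28 groups lay 6 to 8 kb into the gene. That bin held a mean of 112 IPM in Syn1CreNeg, 66.5 in GFAPCreNeg, 39.0 in GFAPCre and 25.4 in Syn1Cre. The most used position, 172348798, took 149 insertions in 35 animals. Gene bodies held 87.4% of the locus insertions in Syn1Cre and 94.8% in Syn1CreNeg, and the part of Pigm held at most 4.55% in any mouse group.

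Aqp4 (gene ID 11829) spans chr18:15389394-15410982, in a locus of 41.6 kb with no other protein-coding gene body. The most used position, 15404852 in the gene body, took 209 insertions in 39 of the 46 animals, the widest spread over animals of the 5 most used positions of any of the 4 loci. It lies 15458 bases from the end of the gene with the lower coordinate. The densest 2 kb bin lay 16 to 18 kb from that end in Syn1Cre, Syn1CreNeg, GFAPCre, GFAPCreNeg and SP1 P28.

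Atp1b2 (11932) spans chr11:69599728-69605978, in a locus of 26.3 kb that takes in parts of Trp53 and Shbg, and its insertions lay mostly in the flanks. In Syn1Cre 24.6% of the locus insertions lay in the gene body and 20.8% did so in Syn1CreNeg. The most used position, 69606325, lay outside the body, beyond its end of higher coordinate, and took 148 insertions in 36 animals. The parts of Trp53 and Shbg held 25.8% of the locus insertions in Syn1Cre, 24.2% in Syn1CreNeg, 9.92% in SP1 at P28 and 0 of 25 in SP1 at P10.

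**Figure D1:**
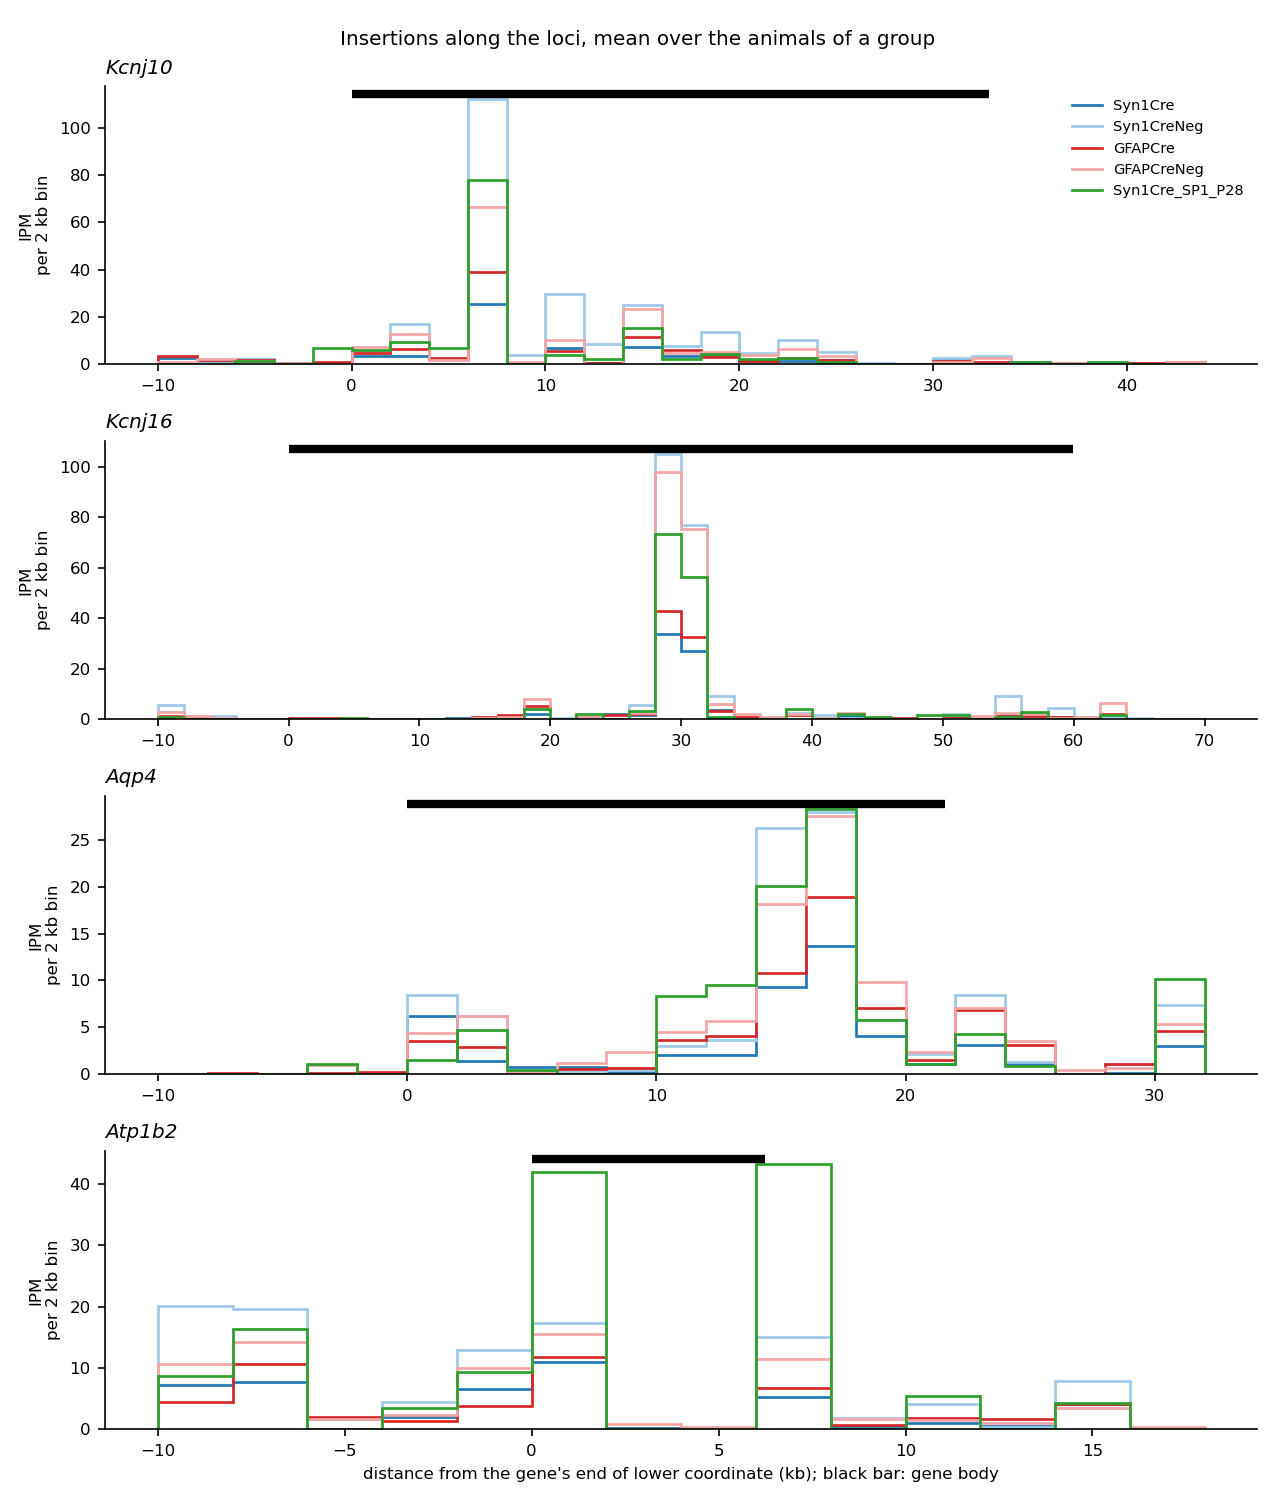
Mean IPM (vertical axis) in 2 kb bins along each locus, against the distance in kb from the end of the gene with the lower coordinate, for 5 groups; the black bar is the gene body. In all 5 groups the Kcnj10 peak lies at 6 to 8 kb and the Kcnj16 peak at 28 to 30 kb, and SP1 at P28 has its tallest Atp1b2 bin, 43.3 IPM, at 6 to 8 kb.

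The strand of insertions was uneven at Aqp4. Insertions labelled plus made up 25.4% of the 248 in Syn1Cre and 29 of the 181 in Syn1CreNeg, and every animal of the Syn1Cre, Syn1CreNeg, GFAPCre and GFAPCreNeg groups was below 50%, with a highest value of 45.9%. Among loci with at least 20 insertions, 17.8% in Syn1Cre, 8.60% in Syn1CreNeg, 25.15% in GFAPCre and 19.1% in GFAPCreNeg lay as far from an even split. In the DNA-read BrokenHeart tables, 78.6% of the 14 Aqp4 insertions were labelled plus, and all 3 animals were above 50%. How the DNA-read and the RNA-read tables define the strand is not given in the sources used here, so a difference in insertions and one in convention cannot be told apart. At Kcnj16 the plus share was above 50% in every animal of the Syn1Cre, Syn1CreNeg, GFAPCre and GFAPCreNeg groups, from 54.9% to 73.6%. Many loci lay as far from an even split as Kcnj16, from 44.2% in Syn1Cre to 53.15% in Syn1CreNeg among these groups.

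Mean levels of all 4 loci were higher in Syn1CreNeg and GFAPCreNeg than in their Cre-positive counterparts. For Kcnj10 the 6 Syn1CreNeg animals held 381, 267, 218, 234, 211 and 236 IPM, and the 6 Syn1Cre animals 54.5, 52.5, 43.7, 68.1, 158 and 66.4. The 6 GFAPCreNeg animals held 139, 148, 131, 148, 109.7 and 274, and the 6 GFAPCre animals 115, 65.1, 162, 126, 69.9 and 70.4. No Syn1Cre animal reached the lowest Syn1CreNeg animal, while the GFAPCre and GFAPCreNeg ranges overlapped. Animal 5 of Syn1Cre stood above the other 5, which lay between 43.7 and 68.1.

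For Kcnj16 the Syn1CreNeg animals held 193 to 280 IPM (mean 234 ± 34.6, SD, n = 6) and the GFAPCreNeg animals 164 to 317 (219 ± 62.2, SD, n = 6). The Syn1Cre animals held 46.5, 59.6, 44.8, 89.4, 176 and 88.2, and the GFAPCre animals 105, 72.4, 152, 139, 86.2 and 76.3. Neither Cre group overlapped its Cre-negative group. For Aqp4 the means were 103 ± 29.7 in Syn1CreNeg, 100.1 ± 30.2 in GFAPCreNeg, 70.1 ± 27.2 in GFAPCre and 48.9 ± 36.5 in Syn1Cre (SD, n = 6 each). For Atp1b2 they were 104 ± 19.1, 75.0 ± 29.0, 48.7 ± 10.8 and 47.3 ± 22.7 in the same order (SD, n = 6 each). These ranges overlapped at Aqp4 and Atp1b2 within both lines. The share of all loci without overlap was not computed for any pair of groups. The cases without overlap at Kcnj10 and Kcnj16 therefore have no background.

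Over all 11 mouse groups, ordered by mean level, most neighbours overlapped. The exceptions were SP1 at P10 above C57bl6J for Kcnj10, C57bl6J above Rbp4Cre_TRAP for Aqp4 and Syn1Cre above C57bl6J for Atp1b2. Frontflip_GFAPCreNeg came first for all 4 genes, at 330, 246, 152 and 236 IPM, but its values rest on 5, 5, 3 and 3 insertions. Rbp4Cre_TRAP came last for Kcnj10, Kcnj16 and Aqp4, and BrokenHeart last for Atp1b2.

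Per kb of locus, the members were dense in the Cre-negative groups. In Syn1CreNeg the means were 4.88 IPM per kb at Kcnj10, 3.95 at Atp1b2, 2.93 at Kcnj16 and 2.49 at Aqp4, against a median of 0.272 over all loci. Between 97.98% (Aqp4) and 99.6% (Kcnj10) of protein-coding loci were less dense there. In C57bl6J the values were 0.664, 0.975, 0.680 and 0.538 IPM per kb for Kcnj10, Atp1b2, Kcnj16 and Aqp4, and between 74.0% and 91.1% of loci were less dense.

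**Figure D2:**
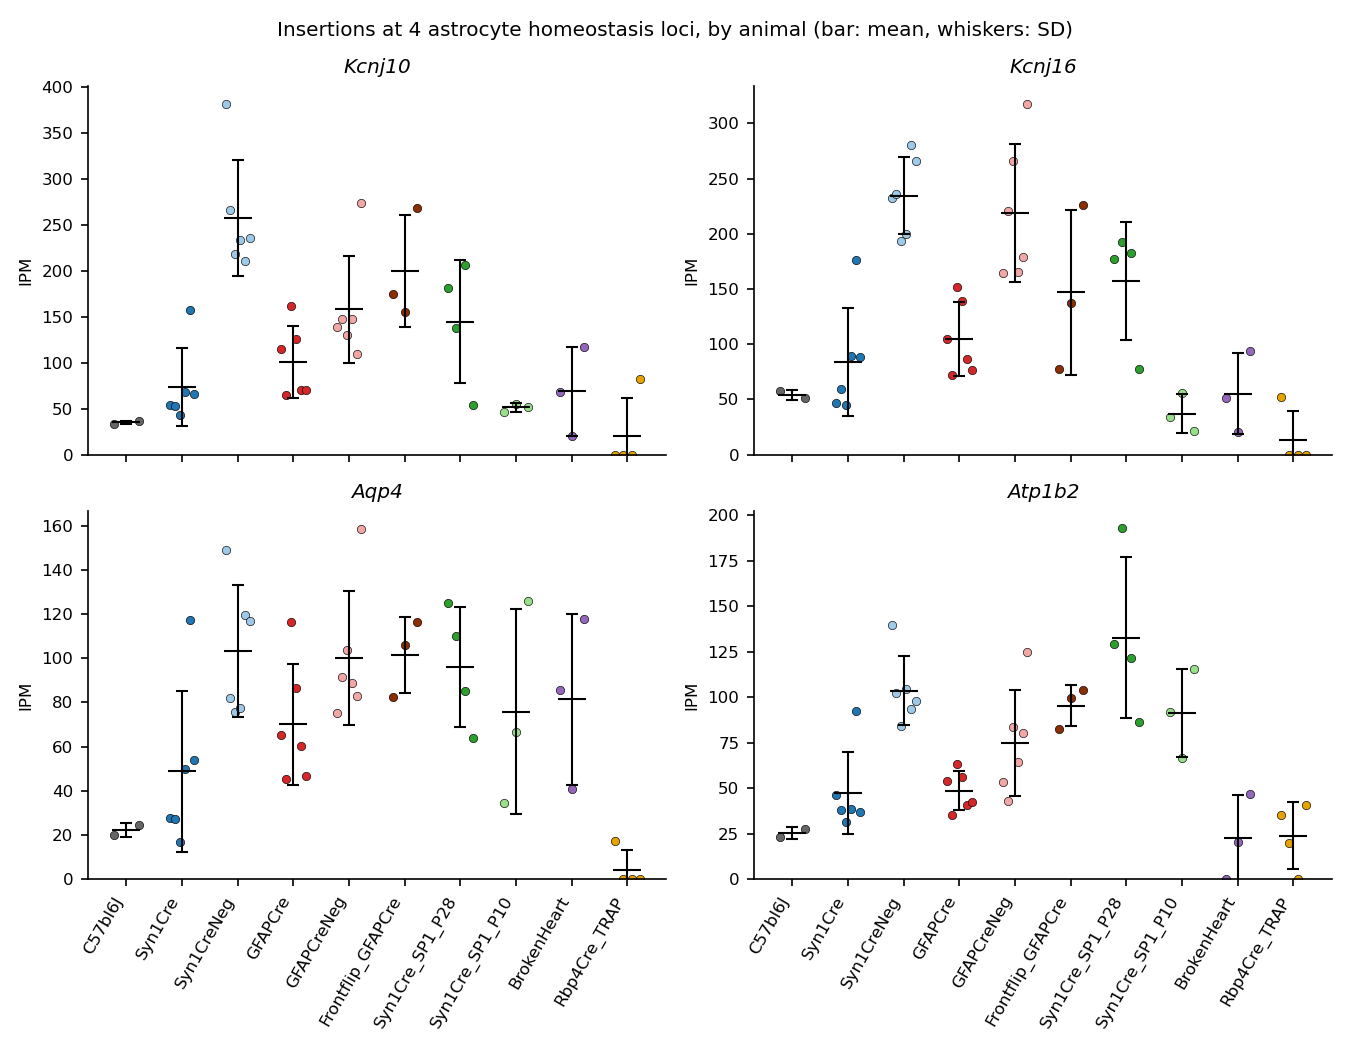
IPM (vertical axis) at the 4 loci in each animal (points) of 10 groups, with the mean (bar) and SD (whiskers); Frontflip_GFAPCreNeg is left out because it holds 5 or fewer insertions per locus. All Syn1CreNeg animals lie above all Syn1Cre animals at Kcnj10 and Kcnj16, and Syn1Cre animal 5 is the highest of its group in all 4 panels. The share of all loci that separate in this way was not computed.

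In some groups the level of a locus went with the depth of the table. In Syn1Cre, GFAPCre and GFAPCreNeg the animal with the fewest insertions was the highest of its group at all 4 loci, and in GFAPCre and SP1 at P28 the animal with the most insertions was the lowest at all 4. In Syn1CreNeg neither held at any of the 4. The summed astrocyte marker level of Syn1Cre reached 2331 IPM at its highest, against a median of 879. The part of depth in the results below was not tested.

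**Figure D3:**
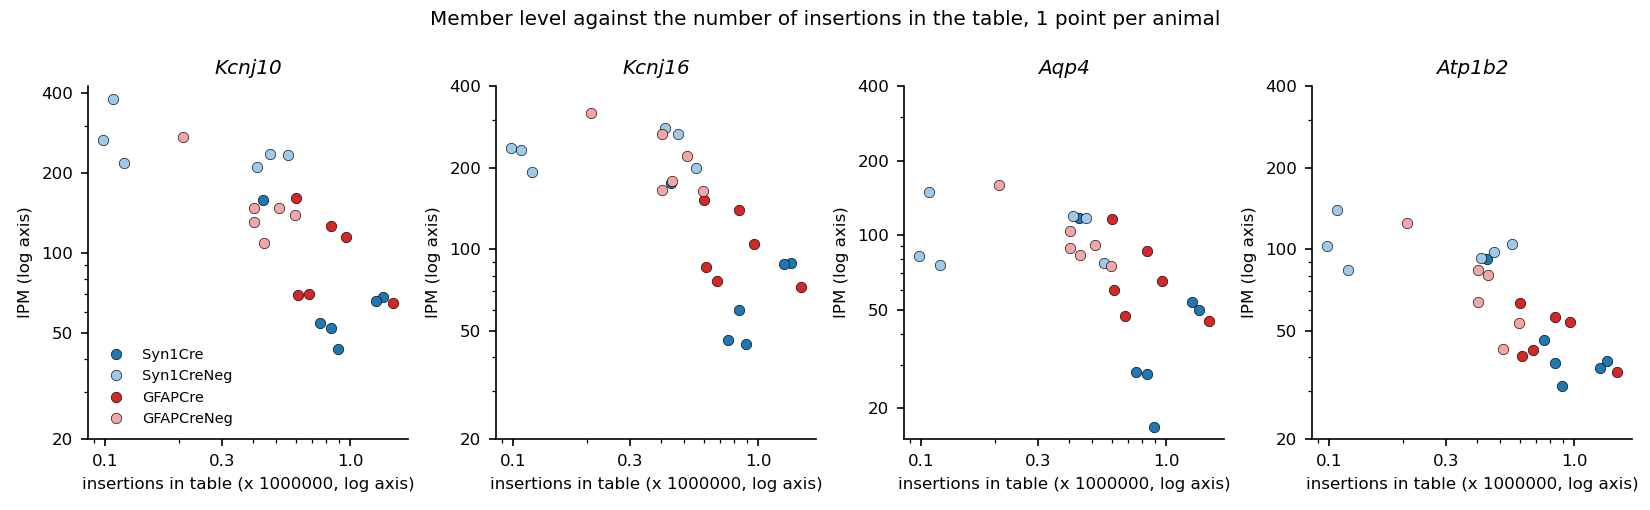
Level of each member (IPM, log axis) against the number of insertions in the table (in units of 1000000, log axis), 1 point per animal of 4 groups. Most Cre-negative animals lie above and to the left of most Cre-positive animals; Syn1Cre animal 5, with 443158 insertions, lies among the Cre-negative points.

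The comparison of each Cre line with its Cre-negative animals asks where the share of insertions differs when Cre is present. At Kcnj10, Syn1Cre held 372 of 5573110 insertions and Syn1CreNeg 422 of 1768674. The counts in the same order were 438 and 424 at Kcnj16, 248 and 181 at Aqp4, and 236 and 178 at Atp1b2. A lower share was therefore not a lower count at Kcnj16, Aqp4 and Atp1b2. GFAPCre likewise held 5201701 insertions in all and GFAPCreNeg 2575805. All 4 loci were lower in Syn1Cre than in Syn1CreNeg: Kcnj10 fell by 1.85 on the log2 scale (SE 0.22, edgeR adjusted p = 1.89e-06), and Kcnj16 fell by 1.59 (SE 0.24, adjusted p = 2.32e-05). Atp1b2 fell by 1.24 (SE 0.21, adjusted p = 6.81e-05) and Aqp4 by a log2 change of -1.21 (SE 0.30, adjusted p = 0.00339). With all animals, 31.1% of the 8613 loci tested were called, and 0.186% had a lower log2 fold change than Kcnj10. The labels write the sequencing pools of animals 1 to 3 and of animals 4 to 6 in different layouts, and the fit was repeated within each, an alternative chosen after seeing the data. In animals 1 to 3 of both groups the log2 changes were -2.54, -2.14, -2.11 and -1.51 for Kcnj10, Kcnj16, Aqp4 and Atp1b2, and all 4 passed. In animals 4 to 6 they were -1.35, -1.14, -0.64 and -1.01, and Aqp4 did not pass there (edgeR adjusted p = 0.0831).

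In the GFAP line 1 of 4 members passed: Kcnj16 fell by 1.03 in GFAPCre against GFAPCreNeg (SE 0.17, edgeR adjusted p = 0.00048). With all animals the share called was 8.15% of 9203 loci, and the shares of the alternative fits below are not given here. Kcnj10 (log2 change -0.59, SE 0.20), Atp1b2 (-0.54, SE 0.19) and Aqp4 (-0.48, SE 0.20) did not pass, with edgeR adjusted p of 0.0606, 0.0842 and 0.134. Without GFAPCre animal 3, the shallowest and highest of its group, all 4 passed, with log2 changes of -0.73, -1.14, -0.64 and -0.60 for Kcnj10, Kcnj16, Aqp4 and Atp1b2. Without GFAPCreNeg animal 2 or 5, or GFAPCre animal 4, a second member passed beside Kcnj16. When the fit kept only animals pooled for sequencing with animals of the other group, and took the pool as a block, Kcnj16 was at -1.01 and no member passed (edgeR adjusted p = 0.0617 for Kcnj16). A direct test of whether the Cre difference depends on the line, 1 edgeR model over the 4 groups, called none of the 4 members and 0.692% of 10550 loci. The difference in log2 change, Syn1 minus GFAP, was -1.24 at Kcnj10 (SE 0.32, unadjusted p = 0.000379, edgeR adjusted p = 0.0526), and between -0.72 and -0.55 at the other 3.

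Other genes of ion and water balance moved both ways. Of a list of 36, 29 were tested in Syn1Cre against Syn1CreNeg, with 3 called higher and 9 lower, and a median log2 change of 0.04 against 0.02 over all loci. The 3 named here had the largest changes: Car2, a carbonic anhydrase, was at -1.67 (SE 0.29), Hepacam, a cell adhesion molecule of astrocyte endfeet, at -1.45 (SE 0.20) and Slc4a4, a sodium bicarbonate cotransporter, at -1.19 (SE 0.20). In GFAPCre against GFAPCreNeg 6 of 31 were called lower and none higher: Car2 was at -1.41 (SE 0.19), Lrrc8a, a volume-regulated anion channel subunit, at -0.80 (SE 0.18) and Hepacam at -0.72 (SE 0.15). Of the astrocyte marker loci 9 of 10 tested were called lower in the Syn1 line and 4 of 12 in the GFAP line. Markers of other cells moved as well. In the Syn1 line 2 of 5 oligodendrocyte lineage loci were lower, Olig2 (log2 change -2.10, SE 0.29) and Olig1 (-2.001, SE 0.301), as was 1 of 2 microglia loci, P2ry12 (-0.93, SE 0.25), while 6 of 12 neuron loci were higher and 1 lower. The single endothelial locus tested, Pecam1, was higher there. In the GFAP line Olig2 was lower (-0.80, SE 0.25) and Mbp higher among 5 oligodendrocyte lineage loci, 1 of 11 neuron loci was higher and 1 lower, and neither of the 2 microglia loci nor the endothelial locus was called. The part of these cells in the results was not tested.

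Both Cre-negative groups lack Cre and are labelled by different lines. No member passed between them, and 0.0426% of 7040 loci did. Kcnj10 was nearest, at a log2 change of 0.69 in Syn1CreNeg over GFAPCreNeg (SE 0.15, edgeR adjusted p = 0.0596); 99.5% of loci had a lower value. Atp1b2 was at 0.53 (SE 0.18, adjusted p = 0.211), Kcnj16 at 0.16 and Aqp4 at 0.11. Without GFAPCreNeg animal 6, Kcnj10 (0.82, edgeR adjusted p = 1.38e-05) and Atp1b2 (0.65, adjusted p = 0.0145) passed, and without Syn1CreNeg animal 3 Kcnj10 did (0.70, adjusted p = 0.0409). No locus of the ion and water list passed.

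Syn1Cre against GFAPCre asks whether insertions under the neuronal and the astrocyte Cre line differ. No member passed, while 2.15% of 11553 loci did. All 4 log2 changes of Syn1Cre over GFAPCre were below 0: -0.63 for Aqp4 (SE 0.30, edgeR adjusted p = 0.276), -0.58 for Kcnj10 (SE 0.25, adjusted p = 0.225), -0.42 for Kcnj16 (SE 0.25) and -0.19 for Atp1b2 (SE 0.21). At an unadjusted edgeR p under 0.05, 2 of the 4 would pass, Kcnj10 at 0.028 and Aqp4 at 0.0441. The share of all loci under that unadjusted p is not given here, and the 2.15% is no background for this count. The outcome depended on which Syn1Cre animals were kept. Leaving out 1 animal at a time gave calls only without Syn1Cre animal 5. In that fit Kcnj10 (-0.82), Kcnj16 (-0.64) and Aqp4 (-0.90) passed, with edgeR adjusted p of 0.00505, 0.0359 and 0.0149. With Syn1Cre animals 1 to 3 alone the same 3 genes passed at -1.11, -1.15 and -1.62, and with animals 4 to 6 alone none passed, at -0.19, 0.08 and -0.05. Of the 12 astrocyte marker loci tested, 0 were called and 0 were higher in Syn1Cre, with a median of -0.28 against -0.002 over all loci. Of 14 neuron loci 3 were called higher, Bcl11b, Gad2 and Gad1, and of 2 microglia loci P2ry12 was called lower. None of the 6 oligodendrocyte lineage loci or 2 endothelial loci was called. The part of these cells in the result was not tested. None of the 34 ion and water loci tested was called.

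The C57bl6J animals, whose virus needs no Cre, had low levels at the 4 loci: 33.6 and 36.6 IPM at Kcnj10, 57.6 and 51.2 at Kcnj16, 20.1 and 24.7 at Aqp4 and 23.3 and 27.9 at Atp1b2. Against GFAPCre all 4 were lower and no range overlapped. The share of all loci without overlap between these groups was not computed, so that count has no background. The log2 changes of C57bl6J over GFAPCre were -1.46 for Aqp4 (SE 0.25, edgeR adjusted p = 0.000246), -1.39 for Kcnj10 (SE 0.24, adjusted p = 0.000264), -0.83 for Kcnj16 (SE 0.20) and -0.77 for Atp1b2 (SE 0.20). In this comparison 12.5% of 13256 loci were called. Without C57bl6J animal 1, where the lone animal is assumed to vary like the others, Kcnj10 and Aqp4 passed, and Kcnj16 and Atp1b2 did not (edgeR adjusted p = 0.0587 and 0.151); without animal 2 only Kcnj16 was lost (adjusted p = 0.126). With distinct positions Kcnj16 was at -0.20 and did not pass (adjusted p = 0.58), and with gene bodies alone Atp1b2 was at -0.32 and did not pass (adjusted p = 0.552). Markers of several cell types differed too, with 7 of 13 astrocyte loci lower. Of 6 oligodendrocyte lineage loci 2 were lower, Olig1 (-1.85, SE 0.32) and Olig2 (-1.73, SE 0.34), and 1, Mog, was higher. Of 2 microglia loci P2ry12 was lower (-0.70, SE 0.18), and of 3 endothelial loci Flt1 was higher. Of 15 neuron loci 6 were higher, among them Gad2 (2.53, SE 0.19) and Gad1 (2.03, SE 0.24), and 1 was lower. Their part in the result was not tested. Of the ion and water list 8 of 35 were lower, led by Hepacam (-0.79, SE 0.18), Agrn, a basal lamina organiser (-0.75, SE 0.18), and Dtna, a dystrobrevin of the endfoot complex that holds Aqp4 (-0.66, SE 0.13). Against Syn1Cre no member passed, with log2 changes from -0.85 (Aqp4, SE 0.41) to -0.43 (Kcnj16, SE 0.33), and 0.81% of 14445 loci did. The C57bl6J tables held the most insertions of all, but not the most reads. With scaling by total insertions the median over all loci in these comparisons was -0.16 against Syn1Cre and -0.11 against GFAPCre.

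The SP1 groups ask where an SP1-directed transposase inserts in Syn1Cre mice. SP1 at P28 differed from Syn1Cre at 51.5% of 12053 loci, and at P10 at 40.7% of 12787. Of the members 1 of 4 passed in each, a count too small to tell from that background. At P28 the Atp1b2 animals held 129, 193, 121 and 86.6 IPM against 31.4 to 92.5 in Syn1Cre, and Atp1b2 rose by 0.96 on the log2 scale (SE 0.26, edgeR adjusted p = 0.00363). The other 3 members did not pass: Aqp4 was at 0.49 (SE 0.38), Kcnj10 at 0.39 (SE 0.34) and Kcnj16 at 0.32 (SE 0.33). Scaling by total insertions moved the median over all loci from -0.06 to 0.42, and with it all 4 passed, at 1.44 for Atp1b2, 0.97 for Aqp4, 0.88 for Kcnj10 and 0.81 for Kcnj16. Without Syn1Cre animal 5 the count was 3, and without SP1 P28 animal 4, the deepest of its group and the lowest at all 4 loci, it was 2.

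At P10 the 3 animals held 34.5, 55.7 and 20.98 IPM at Kcnj16, from 10 insertions in all, and Kcnj16 was lower than in Syn1Cre (log2 change -1.66, SE 0.66, edgeR adjusted p = 0.0461). The median over all loci was -0.26 here and 0.27 under scaling by total insertions, where Kcnj16 was at -1.12 and did not pass (adjusted p = 0.163) and Atp1b2 passed at 1.07 (adjusted p = 0.0372). With gene bodies alone, too, Kcnj16 did not pass (-1.27, adjusted p = 0.203) and Atp1b2 did (1.99, adjusted p = 0.00929), so the 1 member called was not the same. Leaving out any 1 of the SP1 P10 animals, or Syn1Cre animal 4 or 6, ended the call. Kcnj10 was at -0.96 (SE 0.55), Atp1b2 at 0.54 (SE 0.41) and Aqp4 at 0.23 (SE 0.63), from 14, 25 and 21 insertions. Between the ages, Kcnj16 was higher at P28 than at P10 by 2.01 on the log2 scale (SE 0.44, edgeR adjusted p = 0.00626), with 177, 193, 182 and 77.9 IPM at P28, and 11.2% of 3460 loci were called, with a median over all loci of 0.03 (-0.10 with scaling by total insertions, where 1 member passed too). Kcnj10 (1.39, SE 0.48, adjusted p = 0.0557), Atp1b2 (0.48, SE 0.31) and Aqp4 (0.34, SE 0.38) did not pass. The Kcnj16 call did not pass with distinct positions (log2 change 1.18, adjusted p = 0.0841) or without SP1 P10 animal 3 (1.70, adjusted p = 0.0813), and without SP1 P28 animal 1 or 3 Kcnj16 no longer met the low-count filter and was not tested. Without SP1 P28 animal 4, Kcnj10 passed too (1.87, adjusted p = 2.41e-05).

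Of the ion and water list 9 of 33 loci were higher and 9 lower in SP1 at P28 against Syn1Cre, and 8 and 12 of 34 at P10. The neighbours Fxyd7 and Fxyd1, which encode regulators of the sodium pump and whose loci overlap, rose by 2.57 and 2.54 at P28 (SE 0.22 each) and by 3.37 and 3.35 at P10 (SE 0.28 and 0.27). Agrn, the basal lamina organiser, rose by 1.57 at P28 (SE 0.20), and Kcnk1, a two-pore potassium channel, was at -2.45 at P10 (SE 0.47). Between P28 and P10 4 of 18 were higher at P28, led by Kcnk1 (2.44, SE 0.46), Hepacam (0.98, SE 0.32) and Dtna (0.96, SE 0.24).

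The position of insertions within the loci also differed under SP1 at Atp1b2 and Kcnj10. How many of all loci show such a shift was not computed, so the results below have no background. Insertions in RefSeq promoter windows also made up more of the SP1 tables. Animal 1 held 8510 of 231909 insertions there at P28 and 3745 of 86842 at P10, against 7918 of 752737 in Syn1Cre. At the end of Atp1b2 with the higher coordinate, 36.7%, 23.8%, 40.0% and 36.0% of the locus insertions of the 4 SP1 P28 animals lay within 1 kb, against 7.32% to 15.6% in the 6 Syn1Cre animals. The groups did not overlap, and the difference of 22.9 percentage points had an exact two-sided permutation p of 0.00476, the smallest this design allows (adjusted p = 0.0286 over 12 tests). At P10, 4 of 8, 4 of 6 and 7 of 11 insertions of the 3 animals lay there, with a mean of 60.1% ± 8.88 (SD, n = 3) and an exact permutation p of 0.0119, again the smallest possible (adjusted p = 0.0476); leaving out any 1 animal of either group ended that call, since a smaller design allows no p as low. At the end of lower coordinate the shares did not separate: 34.2% ± 3.82 at P28 (SD, n = 4), 31.6% ± 5.88 at P10 (SD, n = 3) and 34.4% ± 3.29 in Syn1Cre (SD, n = 6), with exact permutation p of 0.929 and 0.381. The position 69606325, beyond the end of higher coordinate, took 24 of 121 insertions in SP1 P28 and 10 of 25 in SP1 P10, against 23 of 236 in Syn1Cre.

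At the Kcnj10 start, before which the printed stretch holds 2 GC boxes, 2.94% to 6.67% of the locus insertions lay within 1 kb in the SP1 P28 animals and 0 to 2.44% in Syn1Cre. The counts behind these shares are small, 6 of 122 insertions against 4 of 372. The groups did not overlap (exact permutation p = 0.00476, adjusted p = 0.0286). At P10, 1 of 14 insertions lay there (exact permutation p = 0.333). At the outermost Kcnj16 start none of the 137 insertions of SP1 P28 and 2 of the 438 of Syn1Cre lay within 1 kb (exact permutation p = 0.467). At Aqp4 the shares at both ends were 0 in the SP1 P28 animals, against 5.82% ± 6.80 and 3.598% ± 2.59 in Syn1Cre (SD, n = 6), and neither end passed (adjusted p = 0.126 and 0.1, exact permutation tests).

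**Figure D4:**
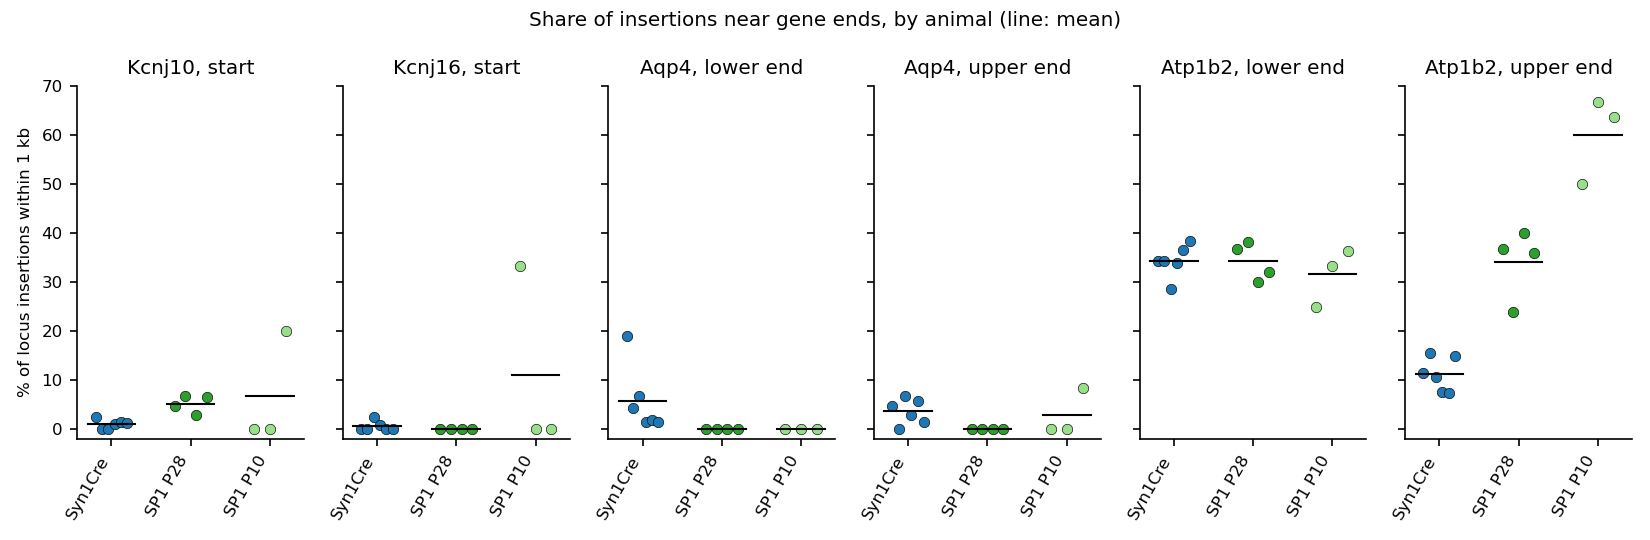
Percent of a locus's insertions within 1 kb of a listed start (Kcnj10, Kcnj16) or of either gene end (Aqp4, Atp1b2), 1 point per animal, with the group mean as a line. At the upper end of Atp1b2 the SP1 P28 animals lie at 23.8% to 40.0% and the SP1 P10 animals up to 66.7%, all above the Syn1Cre animals.

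Frontflip_GFAPCre, the other construct in GFAPCre mice, had higher levels at 2 members than GFAPCre. Kcnj10 was at 175, 156 and 269 IPM and rose by 1.06 on the log2 scale (SE 0.27, edgeR adjusted p = 0.0314), with ranges that overlapped. Atp1b2, at 82.7, 99.6 and 104.0, rose by 1.05 (SE 0.26, adjusted p = 0.0255) and did not overlap. Kcnj16 (0.53, SE 0.28) and Aqp4 (0.63, SE 0.31) did not pass, and 1.75% of 10526 loci were called. Leaving out any 1 Frontflip_GFAPCre animal ended both calls, as did counting the gene bodies alone or insertions with at least 2 reads, and without GFAPCre animal 2, 5 or 6 only 1 remained past the threshold. Of the ion and water list 5 of 31 rose, among them Hepacam (0.96, SE 0.20) and Kcnk1 (0.85, SE 0.20). Of the astrocyte marker loci 3 of 12 rose.

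Against Syn1Cre, Frontflip_GFAPCre was higher at Kcnj10 by 1.63 (SE 0.33, edgeR adjusted p = 0.00552) and at Atp1b2 by 1.23 (SE 0.33, adjusted p = 0.0394), while 3.49% of 12017 loci were called. Aqp4 (1.26, SE 0.47) and Kcnj16 (0.95, SE 0.41) did not pass. Without Syn1Cre animal 5 all 4 passed, and without any 1 other animal of either group 0 or 1 did. With scaling by total insertions the median over all loci moved from -0.04 to -0.16, and the same 2 members passed. Hepacam (1.39, SE 0.28) rose too, and Trpv4, an osmosensitive cation channel, had 0 insertions against 86, at least 2.72-fold lower with 3 counts over the group as the floor. Against Frontflip_GFAPCreNeg, Kcnj10 and Kcnj16 could be tested and did not pass (log2 change -0.01, SE 0.74, and -0.49, SE 0.76, against a median over all loci of 0.44, or -0.07 with scaling by total insertions), and 7% of 1286 loci were called.

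Rbp4Cre_TRAP, from neurons of the deep cortex by the usual use of that line, had few insertions at the members: 2 at Kcnj10, 3 at Kcnj16, 1 at Aqp4 and 4 at Atp1b2 in 4 animals together. Kcnj10, Kcnj16 and Aqp4 were each at 0 in 3 of the 4 animals. Against GFAPCre these 3 passed (edgeR adjusted p = 0.00215, 0.00256 and 0.00629), and the ratios of pooled levels were 0.121 (95% counting interval 0.0146 to 0.438), 0.174 (0.0358 to 0.511) and 0.0885 (0.00224 to 0.496). Atp1b2 was at a ratio of 0.496 (0.134 to 1.29) and did not pass (edgeR adjusted p = 0.278). In this comparison 5.98% of 10391 loci were called, and the median over all loci was -0.27 (-0.04 with scaling by total insertions, where the same 3 passed). With gene bodies alone Aqp4 did not pass (adjusted p = 0.0658). Of the ion and water list 8 of 32 were lower and none higher, among them Hepacam (log2 change -1.76, SE 0.39), Car2 (at least 2.25-fold lower) and Lrrc8a (at least 1.55-fold lower), both with no insertion in Rbp4Cre_TRAP. Against Syn1Cre no member passed (edgeR adjusted p from 0.136 to 0.491), and 2.11% of 10693 loci did, with a median over all loci of -0.31 (-0.07 with scaling by total insertions); without Syn1Cre animal 5, Kcnj10 and Kcnj16 passed (adjusted p = 0.0216 and 0.0203). Slc4a4 (-1.42, SE 0.35) and Dtna (-1.25, SE 0.27) were lower there. The astrocyte markers Aldoc, Gjb6, Ntsr2 and Mlc1 were at 0 in all 4 animals, and the 13 astrocyte loci summed to 238 to 738 IPM. Markers of other cells were at 0 as well in these shallow tables. They were Gad1 and Slc32a1 of 15 neuron loci and Olig2 and Sox10 of 8 oligodendrocyte lineage loci. Cx3cr1, Tmem119 and C1qa of 6 microglia loci and Cdh5 of 5 endothelial loci were too.

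BrokenHeart held too few insertions at the members for the low-count filter, so none was tested against C57bl6J, where 39.9% of 1879 loci were called. The BrokenHeart animals held 68.6, 20.4 and 118 IPM at Kcnj10, 51.5, 20.4 and 94.1 at Kcnj16, 85.8, 40.7 and 118 at Aqp4 and 0, 20.4 and 47.0 at Atp1b2. At Aqp4 all 3 lay above both C57bl6J animals, with a pooled ratio of 3.09 (95% counting interval 1.62 to 5.47) from 14 insertions. At the other 3 the ranges overlapped. Of the 9 ion and water loci that could be tested, 3 were higher and 3 lower, led by Slc6a11, a GABA transporter (1.82, SE 0.38), Kcnj3, a neuronal potassium channel (-1.31, SE 0.36), and Slc4a4 (0.93, SE 0.17).

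**Figure D5:**
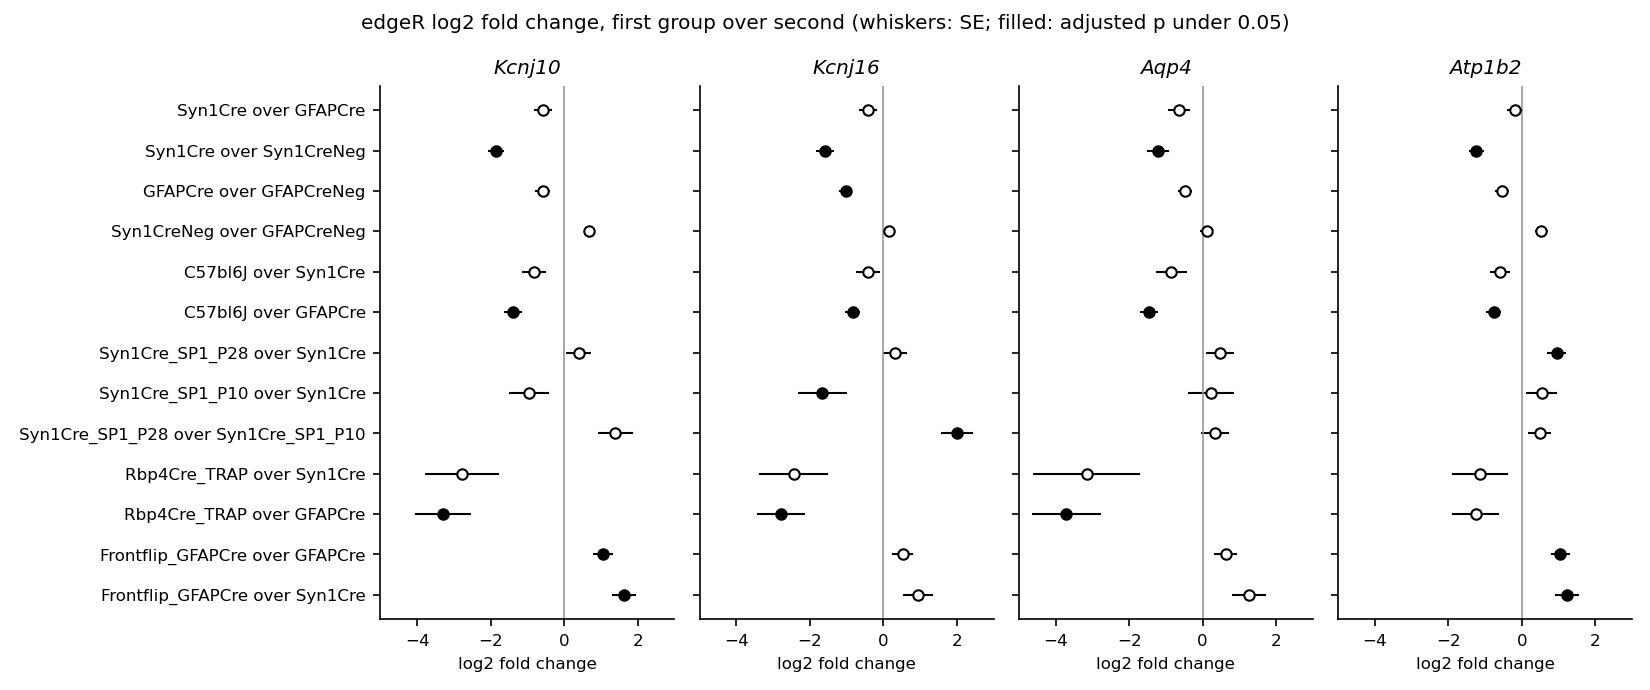
edgeR log2 fold change of the first group over the second (horizontal axis, whiskers SE) for each member in 13 comparisons; filled points passed an adjusted p of 0.05. All 4 members are filled and below 0 for Syn1Cre over Syn1CreNeg and for C57bl6J over GFAPCre, and none is filled for Syn1Cre over GFAPCre.

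In the N2a line all 4 loci had lower levels than in C57bl6J. Kcnj10 had 12 insertions, 14.9 IPM (95% Poisson interval 7.69 to 26.0), Kcnj16 had 2, 2.48 IPM (0.300 to 8.96), and Atp1b2 had 11, 13.6 IPM (6.81 to 24.4). Aqp4 had 0 of 806653 insertions, which allows up to 3.72 IPM, at least 6.12-fold lower than in C57bl6J. The ratio to C57bl6J was 0.421 (0.212 to 0.760) at Kcnj10, 0.0460 (0.00554 to 0.169) at Kcnj16 and 0.525 (0.254 to 0.981) at Atp1b2. These intervals cover counting error only, and 1 pooled table allows no test. The share of all loci lower in N2a was not computed, so the count of 4 has no background. The neuron loci summed to 1571 IPM in N2a against a median of 4503 in C57bl6J. For the ion and water list the sums were 1660 and 3939. Astrocyte and oligodendrocyte lineage sums were lower in N2a too, and microglia (80.6 against 62.2) and endothelial sums (309.9 against 84.1) were higher.

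Over the 33 animals of C57bl6J, Syn1Cre, Syn1CreNeg, GFAPCre, GFAPCreNeg and both SP1 groups, each member was set against all other loci with at least 20 IPM on average, on the scale log2 of the level plus 1. The loci most like Kcnj10 were Nfia (Pearson r 0.963), Frmd4a (0.959) and Zbtb20 (0.958); Nfia encodes a transcription factor of astrocyte development. For Kcnj16 they were Maob (0.960), the monoamine oxidase abundant in astrocytes, Rfx3 (0.958) and Bmpr1b (0.954). For Aqp4 they were Lpin1 (0.915), Bcl2 (0.893) and Cst3 (0.890), and for Atp1b2 Farp1 (0.918), Slc18b1 (0.912) and Gm46608 (0.910). Among the members, Kcnj10 and Kcnj16 were most alike (0.901), and Kcnj16 and Atp1b2 least (0.503). These values describe likeness over animals that share groups and depth, and carry no test.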

How the data were processed

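Per the labels, 194 sequencing samples were combined by the authors into 47 deposited tables of insertions, with 10 cortex parts or 20 transposon barcodes to tell apart repeats at 1 site. The submitters' processing notes name Novoalign, Bowtie2 and mm10. Each line gives a position, a strand and a read count; these deposited read counts are whole numbers with no scaling seen in them. All insertions of the RNA-read tables in RefSeq promoter windows lay on TTAA, and 97.0% to 98.4% of BrokenHeart ones did after a shift by 1 base, which was applied. A line was counted as 1 insertion. Loci were tested with the edgeR 4.0.16 quasi-likelihood test (table totals as library sizes, TMM, filterByExpr, only the 2 groups compared), with Benjamini-Hochberg adjustment over all loci tested and a threshold of 0.05; log2 fold changes are from that fit. DESeq2 1.42.0 was an alternative. Loci overlap and share insertions. Shares near gene ends used exact permutation tests over animals, adjusted over 12 tests; for Aqp4 and Atp1b2, with no listed start, both gene ends were tested, which was added after seeing the data. Named beside the members are neighbours in their loci, at most 3 loci of the ion and water list past the threshold per comparison, and the 3 loci most like each member; some listed loci are not reported here. The members and lists were chosen with earlier results of these data known. Same-numbered animals were not treated as pairs, since in no comparison checked did every pair of deviations correlate above 0.1. Single correlations ran from -0.213 to 0.167, and this rule cannot show that pairing is absent. Some sequencing pools fed several groups, such as GFAPCre with Syn1CreNeg and SP1 P10 with P28. The pool was taken as a block only for GFAPCre over GFAPCreNeg. Alternatives were total scaling, no filter, bodies alone, distinct positions, at least 2 reads, blocks and leaving out each animal. Shares of all loci called are from the first fits with all animals, so counts of members in the alternatives have no such background here.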

Additional observations from a re-analysis of the deposited data

Results flagged for a closer look

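In groups of 4 or 6 animals, 12 values at the 4 loci stood apart from the rest of their group by Dixon's criterion, out of 24 groups of values examined, each on both sides; chance alone marks about 1 group in 20. Syn1Cre animal 5 stood above its group at all 4 loci, with 158 insertions in 1000000 (IPM) at Kcnj10, 176 at Kcnj16, 117 at Aqp4 and 92.5 at Atp1b2. Syn1CreNeg animal 1 was high at Kcnj10 (381 IPM, from 41 insertions) and at Atp1b2 (140, from 15 insertions). GFAPCreNeg animal 6 was high at Kcnj10 (274) and Aqp4 (159). SP1 P28 animal 4 was low at Kcnj16 (77.9 against 177 to 193 in the other 3). In Rbp4Cre_TRAP, animal 4 at Kcnj10 (81.9, from 2 insertions) and animal 1 at Kcnj16 (52.6, from 3) and Aqp4 (17.5, from 1) were the only animals above 0. Syn1Cre animal 5 and GFAPCreNeg animal 6 had the fewest insertions of their groups, and SP1 P28 animal 4 the most.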

How the results depend on the processing

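The results are counts of the 4 members past the threshold and the log2 changes of single members. Of 275 alternative counts 209 stayed within 1.5 times the first value and 66 moved; of 895 alternative changes of single members 786 kept direction and side of the threshold, 44 fell below it, 50 rose past it and 15 reversed. The count of 4 for Syn1Cre over Syn1CreNeg stayed at 3 or 4 and that of 3 for Rbp4Cre_TRAP over GFAPCre at 2 or 3 in all alternatives run, and the start share count of SP1 P28 stayed at 2. With distinct positions the count was 2 for GFAPCre over GFAPCreNeg, and 0 for SP1 P10 over Syn1Cre and for SP1 P28 over P10. With no low-count filter it was 4 for GFAPCre over GFAPCreNeg, 1 for Syn1CreNeg over GFAPCreNeg, 2 for SP1 P28 over P10 and 3 for Rbp4Cre_TRAP over Syn1Cre. With gene bodies alone, and likewise with at least 2 reads, it was 1 for Syn1CreNeg over GFAPCreNeg, 0 for Frontflip_GFAPCre over GFAPCre and 1 over Syn1Cre. DESeq2 gave 1 for Syn1CreNeg over GFAPCreNeg, and no adjusted p for 8 values, among them those of SP1 P28 over P10. Scaling by total insertions gave 4 for SP1 P28 over Syn1Cre. The replicate number was also taken as a block, though the numbers are not known to pair animals. It gave 2 for GFAPCre over GFAPCreNeg, 4 for SP1 P28 over Syn1Cre, 2 for SP1 P28 over P10 and 4 for Frontflip_GFAPCre over Syn1Cre. With this block Atp1b2 did not pass for C57bl6J over GFAPCre (-0.61, edgeR adjusted p = 0.0689). For SP1 P10 over Syn1Cre, Aqp4 passed with it (1.15, edgeR adjusted p = 0.0181) in place of Kcnj16. The pool as a block gave 0 for GFAPCre over GFAPCreNeg, and Syn1Cre animals 1 to 3 alone gave 3 over GFAPCre. Within 2 kb the start share count of SP1 P10 was 2. Leaving out 1 animal gave 0 to 3 for Syn1Cre over GFAPCre, 1 to 4 for GFAPCre over GFAPCreNeg, 0 to 2 for Syn1CreNeg over GFAPCreNeg, 2 to 4 for C57bl6J over GFAPCre, 1 to 3 for SP1 P28 and 0 to 1 for SP1 P10 over Syn1Cre, 0 to 2 for SP1 P28 over P10, 0 to 2 for Rbp4Cre_TRAP over Syn1Cre, 0 to 2 for Frontflip_GFAPCre over GFAPCre and 0 to 4 over Syn1Cre. For the SP1 P10 start shares it gave 0, where the smallest p that the design allows is larger. Reversed changes were Kcnj16 at 0.0836 and Atp1b2 at 0.0162 with Syn1Cre animals 4 to 6 alone over GFAPCre, Aqp4 at -0.0611 with distinct positions for Syn1CreNeg over GFAPCreNeg, Kcnj16 at 0.0865 with distinct positions and 0.23 with the replicate block for C57bl6J over Syn1Cre, and Aqp4 at -0.41 without SP1 P10 animal 3 (to 0.53 without another) for SP1 P10 over Syn1Cre. For Frontflip_GFAPCre over its Cre-negative group, Kcnj10 was at 0.18 with DESeq2, 1.03 unfiltered, 0.0202 with bodies alone and 0.39 to 0.58 without 1 Cre-negative animal, and Kcnj16 at 0.56 unfiltered and -0.41 to 0.69 without 1, above 0 without animal 1 or 3. The cause was not tested. Depth limits Frontflip_GFAPCreNeg, Rbp4Cre_TRAP, BrokenHeart and SP1 P10, each with 25 or fewer insertions over all its animals at any member.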
